A study of Mus musculus with 4 samples.

Results

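The unfolded protein response genes described here are 36 genes of endoplasmic reticulum (ER) protein folding, stress sensing and degradation, taken by name from a count table of 78275 genes. All 36 were found in the table and all 36 had enough counts to be tested. They were read by role, as 5 sensors and transcription factors, 2 subunits that direct a phosphatase to eIF2alpha, 10 genes of the BiP and ER HSP90 chaperone system, 2 lectin chaperones, 5 disulfide isomerases and oxidases, 10 genes of ER-associated degradation and 2 translocon subunits. The groups were 2 KO libraries, from Sirt7-/- mice that lack the nuclear deacetylase SIRT7, and 2 WT libraries. All came from testes of 129S1/Sv mice at postnatal day 5, with no treatment named beyond cell isolation. RNA came from pellets of 200000 testis cells enriched for spermatogonia by differential plating, so some somatic cells were still present. The cells were released by enzyme digestion and kept in culture dishes before collection, so levels in both groups are those after this handling. The study describes the libraries of a group as independent biological replicates, while the labels number them without naming animals. With 2 a group, the p-value of a gene rests on the spread between these samples, moderated by the spread of the other genes tested. The study asked whether loss of SIRT7 alters transcription in these cells.

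The unfolded protein response matches the folding capacity of the ER to its load of new proteins. Its sensors are the kinase and RNase IRE1 (Ern1), the kinase PERK (Eif2ak3) and the membrane-bound transcription factor ATF6. IRE1 removes an intron from Xbp1 mRNA so that an active transcription factor is made, PERK phosphorylates eIF2alpha and thereby slows translation, and ATF6 is cut in the Golgi to release its active part. Together they raise the transcription of chaperones, disulfide isomerases and degradation factors, and prolonged stress induces Ddit3, which encodes CHOP. Gene counts pool the spliced and unspliced forms of Xbp1, and they show neither phosphorylation of IRE1 or PERK nor cleavage of ATF6.

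Many promoters in this group hold the ER stress element (ERSE), the sequence through which ATF6 and XBP1 are known to act together with the factor NF-Y. It was searched for in windows of 300 bases, from 250 before to 50 after the transcription start, on both strands, as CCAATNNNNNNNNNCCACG (CGTGGNNNNNNNNNATTGG when read on the other strand). RefSeq windows (GRCm38.p6) were matched for 30 of the 36 members. The element was present in 10 of the 30, or 33.3%, against 37 of 27025 genes in the whole table, or 0.137%. The 37 include these 10 members, and 27 lie outside the list. The members were listed as known genes of this response, so their higher share is a description and was not tested. The shorter ERSE-II, ATTGGNCCACG (CGTGGNCCAAT), was found in Dnajb11 and Herpud1, 6.67% of members against 0.0444% of genes. TGACGTGG (CCACGTCA), a core of the XBP1 site UPRE, was in 0 of the 30 windows against 0.714% of genes, and the C/EBP-ATF core TGATGNAA (TTNCATCA) was in 1, that of Herpud1 (3.33% against 4.51%). The letters CCACG are common to ERSE, ERSE-II and the UPRE core, and CCAAT or its reverse complement is common to ERSE and ERSE-II. A match is a description of the letters and not evidence of binding in these cells.

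The sites of 9 of the 12 members with an ERSE or ERSE-II match are shown, as matches of letters only. The other 18 members with a window had neither element. Capitals mark the ERSE or ERSE-II match, the flanks are 15 bases on each side, each is written 5′ to 3′ on the strand of the gene, and the interval is the promoter window.
Hspa5 (chr2:34771840-34772139, plus strand): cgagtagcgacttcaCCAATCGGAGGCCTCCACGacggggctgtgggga
Hsp90b1, upstream site (chr10:86705395-86705694, minus strand): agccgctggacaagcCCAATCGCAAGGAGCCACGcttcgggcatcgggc
Hsp90b1, downstream site (same window): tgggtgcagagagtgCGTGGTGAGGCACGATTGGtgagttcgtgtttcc
Dnajc3 (chr14:118937682-118937981, plus strand): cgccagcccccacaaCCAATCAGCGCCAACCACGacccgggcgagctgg
Calr (chr8:84846882-84847181, minus strand): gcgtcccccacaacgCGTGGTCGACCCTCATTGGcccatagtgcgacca
Canx (chr11:50325624-50325923, minus strand): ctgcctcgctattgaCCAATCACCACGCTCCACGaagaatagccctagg
Pdia6 (chr12:17266339-17266638, plus strand): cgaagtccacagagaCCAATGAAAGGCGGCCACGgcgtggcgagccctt
Syvn1 (chr19:6046326-6046625, plus strand): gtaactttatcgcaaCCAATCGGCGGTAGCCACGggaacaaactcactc
Derl3 (chr10:75893148-75893447, plus strand): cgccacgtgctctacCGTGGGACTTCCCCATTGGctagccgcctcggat
Herpud1, ERSE-II (chr8:94386179-94386478, plus strand): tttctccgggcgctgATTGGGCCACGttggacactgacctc
The Hspa5 match runs from base -65 to base -47 relative to the start, the Syvn1 match from -44 to -26, and the more distant of the Hsp90b1 matches from -212 to -194. Hspa5, Dnajc3, Canx, Pdia6 and Syvn1 carry the element in its forward orientation, Calr and Derl3 in the reverse one, and Hsp90b1 has one of each. The other 3 genes with a match were Creld2 and Ero1b (ERSE) and Dnajb11 (ERSE-II).

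The preparation held germ cells along with somatic cells. All 10 spermatogonial markers, among them Zbtb16, Dazl and Gfra1, were above 1 CPM, and their summed level ran from 2170 to 2414 CPM over the 4 libraries. The summed level of 10 Sertoli cell genes was 2347 and 2916 CPM in KO libraries and 2641 and 2549 CPM in WT libraries. Total counts ran from 22007504 to 22181066 per library, and mitochondrial transcripts took 4.13% to 4.25% of them. Sirt7 had 129 and 122 counts in KO libraries, against 704 and 692 in WT libraries, a log2 fold change of -2.47 ± 0.11 (SE).

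Unfolded protein response transcripts were abundant in both genotypes, and their total differed little. Summed over the 36 genes, they came to 6573 and 6630 CPM in KO libraries and to 6354 and 6426 CPM in WT libraries. That is 0.660% of the scaled counts in KO and 0.639% in WT, with no correction for transcript length. Both KO sums lay above both WT sums, by 3.31% on the means. Per kb of transcript, the lectin chaperone gene Calr was the highest, at 275 CPM per kb in KO and 256 in WT, followed by Hsp90b1 (183 and 183), Hspa5 (174 and 168) and Pdia3 (164 and 158). The sensors were far lower, with Ern1 at 8.78 CPM per kb in KO and 8.47 in WT, Eif2ak3 at 13.4 and 12.0, and Atf6 at 13.4 and 14.3. The lowest was Ero1b, at 2.06 CPM per kb in KO and 2.39 in WT.

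**Figure D1:**
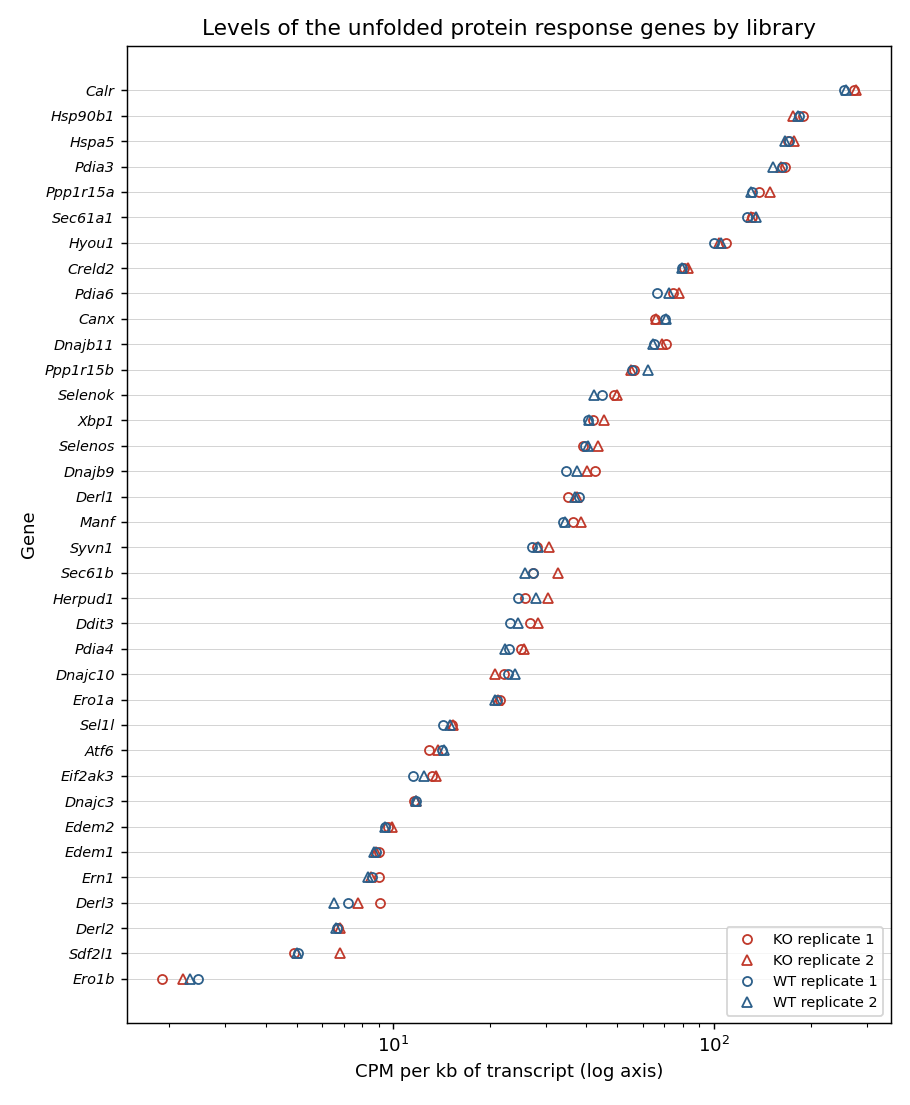
Level of each of the 36 genes in each library, in CPM per kb of transcript on a log axis, with the genes in order of their mean (red, KO; blue, WT; circles, replicate 1; triangles, replicate 2). The 4 libraries lie close together for nearly every gene, from Calr at 275 CPM per kb in KO and 256 in WT down to Ero1b at 2.06 in KO and 2.39 in WT.

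No member was called between KO and WT. Of 19736 genes tested 0.0861% were called by edgeR at an adjusted p under 0.1. Of the 36 members 0 were called by edgeR, 0 by DESeq2 and 0 by limma-voom at that threshold. DESeq2 gave no adjusted p for Sdf2l1, so it could not call that gene. The smallest adjusted p was 0.482, for Selenok. At an unadjusted p under 0.05, 4 members were higher in KO (Ddit3, Dnajb9, Pdia4 and Selenok) and 0 were lower, that is 11.1% of members higher, against 4.48% of all genes tested that were higher and 4.14% that were lower. The count was 2 with DESeq2 and 5 with limma-voom, and it changed when single libraries were left out. For these refits the same share over all genes tested was not computed, so their counts cannot be read as a trait of the members.

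The fold changes were small, and more of them were positive than negative. Log2 fold changes ran from -0.22 (Ero1b) to 0.29 (Derl3) with a median of 0.05, whereas the median over all genes tested was 0.003. They were positive for 27 members and negative for 9, so that 75.0% were positive, against 50.6% of all genes tested and 52.7% of the 10048 genes at 10 CPM or more. Both KO libraries lay above both WT libraries in 19 members (52.8%), which holds for 20.3% of all genes tested and 22.7% of those at 10 CPM or more. Both KO libraries lay below both WT libraries in 5 members (13.9%), against 19.4% of all genes tested, and in the other 12 the groups overlapped. Members share their libraries, so these counts are not independent observations of the genotype.

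The intervals were narrow for most members. The 95% interval of the fold change spanned 0 for 32 members, and for 33 it lay within 0.5 on the log2 scale on either side of 0. The exceptions to the second count were Sdf2l1, Derl3 and Ero1b, the members with the lowest CPM. The median distance between the KO libraries was 0.07 on the log2 scale and that between the WT libraries 0.04, beside a median absolute fold change of 0.10. Over all genes tested the distances were 0.14 and 0.10 and the absolute fold change 0.11. KO replicate 2 was the higher KO library for 24 of the 36 members, and the same share over all genes was not computed. Across members, the fold change went with transcript length (Spearman correlation of -0.55 over 36 genes, a description, since all share 4 libraries), and it did so less closely among 10014 other genes at 10 CPM or more (-0.32). The median transcript length was 3450 bases for members and 3593 for those other genes. The part of length in these fold changes was not tested.

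**Figure D2:**
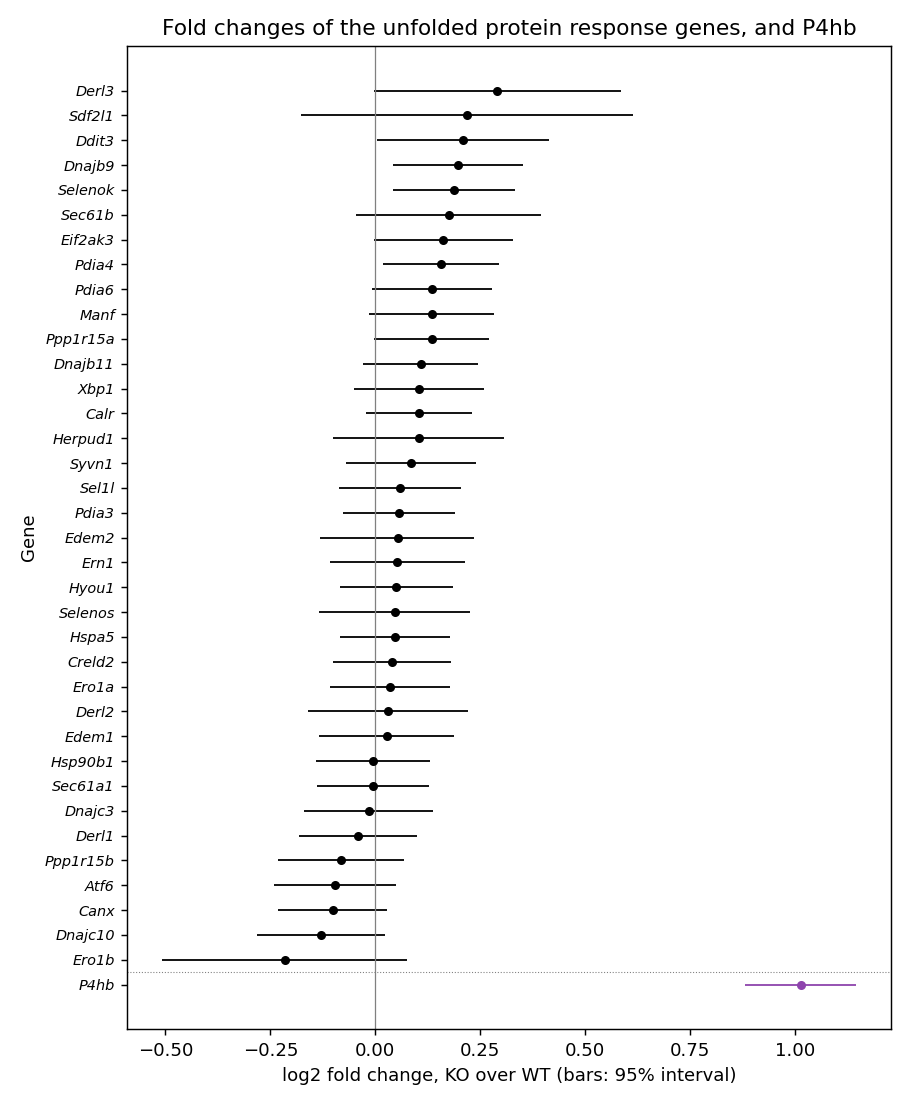
Log2 fold change of each member, KO over WT, with its 95% interval (points and bars), ordered by size, and P4hb below the dotted line for scale. Members lie between -0.22 and 0.29 and P4hb lies at 1.01.

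**Figure D3:**
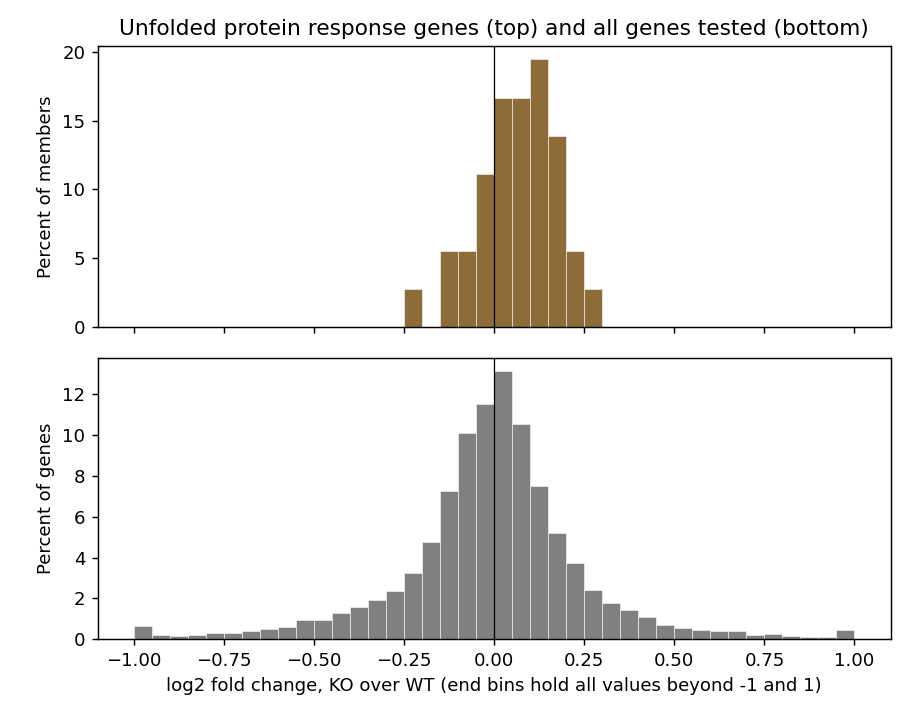
Percent of genes in each bin of log2 fold change, KO over WT, for the 36 members (top) and the 19736 genes tested (bottom). The members fill a narrow range with a median of 0.05, and all genes tested centre on 0.003.

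Among the sensors, each arm of the response was expressed at a similar level in KO and WT. Ern1 was at 63.4 and 59.6 CPM in KO libraries, against 60.3 and 58.3 CPM in WT libraries, and the groups overlapped. Eif2ak3 was at 60.3 and 61.9 CPM in KO and 52.4 and 56.8 CPM in WT, with both KO libraries higher, a log2 fold change of 0.16 ± 0.08 (adjusted p = 0.582). Atf6 was the only sensor lower in both KO libraries, at 97.7 and 104 CPM, against 107 and 109 CPM in WT (-0.10 ± 0.07). None of the 3 passed, and the interval of Ern1 ran from -0.11 to 0.21.

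Xbp1 and Ddit3, transcription factor genes downstream of the sensors, were slightly higher in both KO libraries without passing. Xbp1, the substrate of IRE1 and itself a target of ATF6, was at 82.4 and 89.7 CPM in KO libraries, against 79.6 and 80.4 CPM in WT libraries (adjusted p = 0.714). Ddit3, the gene of the stress-induced factor CHOP, was at 26.2 and 27.6 CPM in KO and 22.6 and 24.0 CPM in WT, a log2 fold change of 0.21 ± 0.09 (adjusted p = 0.575). Both were well above the floor of detection, with 1757 to 1975 counts for Xbp1 and 498 to 608 for Ddit3. Exons of Ddit3 overlap those of Mars1 on the opposite strand over 3576 bases, and Mars1 had 27513 counts in all, against 2217 for Ddit3. Xbp1 overlaps Ccdc117 in the same way over 1526 bases. The kit marks strand, but whether counting used it is not given in the sources used here, so reads of these partners may not be fully separated.

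The phosphatase subunits, which reverse eIF2alpha phosphorylation, had fold changes of opposite sign. Ppp1r15a, the stress-inducible subunit GADD34, was at 323 and 348 CPM in KO libraries, against 306 and 304 CPM in WT libraries, so that both KO libraries were higher (0.13 ± 0.06; adjusted p = 0.582). Ppp1r15b, the constitutive subunit, was at 316 and 309.6 CPM in KO and 312 and 349.8 CPM in WT, with overlapping groups (-0.08 ± 0.07). Neither gene passed, and whether they differed from each other in their response was not tested. Atf4, named after its values were seen, encodes the factor whose translation PERK promotes and was at 437 and 497 CPM in KO and 479 and 466 CPM in WT (-0.02 ± 0.07).

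The main ER chaperones were as abundant in KO as in WT within a few percent. Hspa5, which encodes BiP, the ER member of the HSP70 family that holds the sensors inactive, was at 839 and 882 CPM in KO libraries, against 845 and 821 CPM in WT libraries. Its log2 fold change was 0.05 ± 0.06, with an interval from -0.08 to 0.18. Hsp90b1, the ER member of the HSP90 family, was at 537 and 498 CPM in KO and 519.8 and 518 CPM in WT. The KO libraries of Hsp90b1 lay on either side of the WT ones. Hyou1, a nucleotide exchange factor for BiP, was at 484 and 462 CPM in KO and 445 and 469 CPM in WT, again with overlap. These 3 genes had adjusted p-values of 0.864, 0.987 and 0.857.

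The J-domain co-chaperones of BiP went in both directions. Dnajb9, an XBP1 target that represses IRE1, was at 104 and 98.6 CPM in KO libraries, against 85.2 and 91.8 CPM in WT libraries, at 0.20 ± 0.07 (adjusted p = 0.492). Dnajb11 was at 142 and 138 CPM in KO and 130.5 and 129.6 CPM in WT, with both KO libraries higher. In contrast, Dnajc10, a reductase that unfolds substrates for degradation, was at 92.7 and 86.5 CPM in KO and 95.4 and 100.6 CPM in WT, with both KO libraries lower (-0.13 ± 0.07). Dnajc3, which encodes an inhibitor of PERK, was within 2% between groups (60.3 and 60.9 CPM in KO, 61.3 and 61.3 CPM in WT). None of these 4 passed.

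Of the small secreted or luminal products of the response, Sdf2l1 varied most between libraries. Manf, a neurotrophic factor that stabilizes BiP complexes, was at 81.8 and 86.2 CPM in KO libraries, against 75.9 and 77.2 CPM in WT libraries (0.13 ± 0.07). Creld2, the gene of an ER stress-inducible luminal protein, was at 113 and 116 CPM in KO and 111 and 112 CPM in WT. Sdf2l1, a partner of BiP co-chaperones, was at 5.44 and 7.58 CPM in KO and 5.62 and 5.58 CPM in WT, so that its fold change of 0.22 ± 0.18 came from KO replicate 2. Without that library it was -0.04, and its counts, from 120 to 167, were among the fewest of any member. Manf shares exon bases with Rbm15b on the same strand, over 3962 bases, and overlaps Dcaf1 on the other strand, so its counts are uncertain.

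The lectin chaperones, which bind newly made glycoproteins, differed in sign. Calr, encoding calreticulin, was at 626 and 633 CPM in KO libraries, against 581 and 589.6 CPM in WT libraries, with both KO libraries higher. Canx, encoding calnexin, was at 249.9 and 250.2 CPM in KO and 268 and 269 CPM in WT, with both KO libraries lower. The groups were separated for both genes, but by 0.10 on the log2 scale in either direction, and neither passed (adjusted p = 0.645 for Calr and 0.655 for Canx). Both carry an ERSE, in opposite orientations, and whether orientation goes with the sign of the fold change was not tested.

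The disulfide isomerases of the group had positive fold changes and none passed. Pdia4 was at 137 and 141 CPM in KO libraries, against 126 and 123 CPM in WT libraries (0.16 ± 0.06; adjusted p = 0.528). Pdia6, which limits IRE1 and PERK signalling, was at 248 and 258 CPM in KO and 221 and 240.2 CPM in WT (adjusted p = 0.598). Pdia3, which works with calnexin and calreticulin, was at 611 and 596 CPM in KO and 599 and 562 CPM in WT, and its groups overlapped. The oxidases that recharge these enzymes were apart. Ero1a was at 95.4 and 94.3 CPM in KO and 93.5 and 91.6 CPM in WT, and the scarce Ero1b was at 8.16 and 9.49 CPM in KO and 10.6 and 9.95 CPM in WT (-0.22 ± 0.13), the most negative fold change of the 36 with all libraries. Leaving out 1 library at a time gave -0.32 to -0.11 for Ero1b, and without KO replicate 1, at the upper end, Dnajc10 was lower at -0.18.

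P4hb, a disulfide isomerase gene of the same family that is not among the 36, rose in KO. It had 1495 and 1436 CPM in KO libraries, against 711 and 741 CPM in WT libraries, a log2 fold change of 1.01 ± 0.06 (adjusted p = 1.9e-05), so that its groups stood far apart where those of Pdia3 overlapped. P4hb lies on chromosome 11 from 120451122 to 120464538 (GRCm39), 44.7 kb from Sirt7, which is itself at 120509197 to 120516066. The members are spread over 15 chromosomes. The 4 on chromosome 11 are Ern1, Xbp1, Canx and Derl2, and the nearest, Ern1, is 14.1 Mb from Sirt7.

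**Figure D4:**
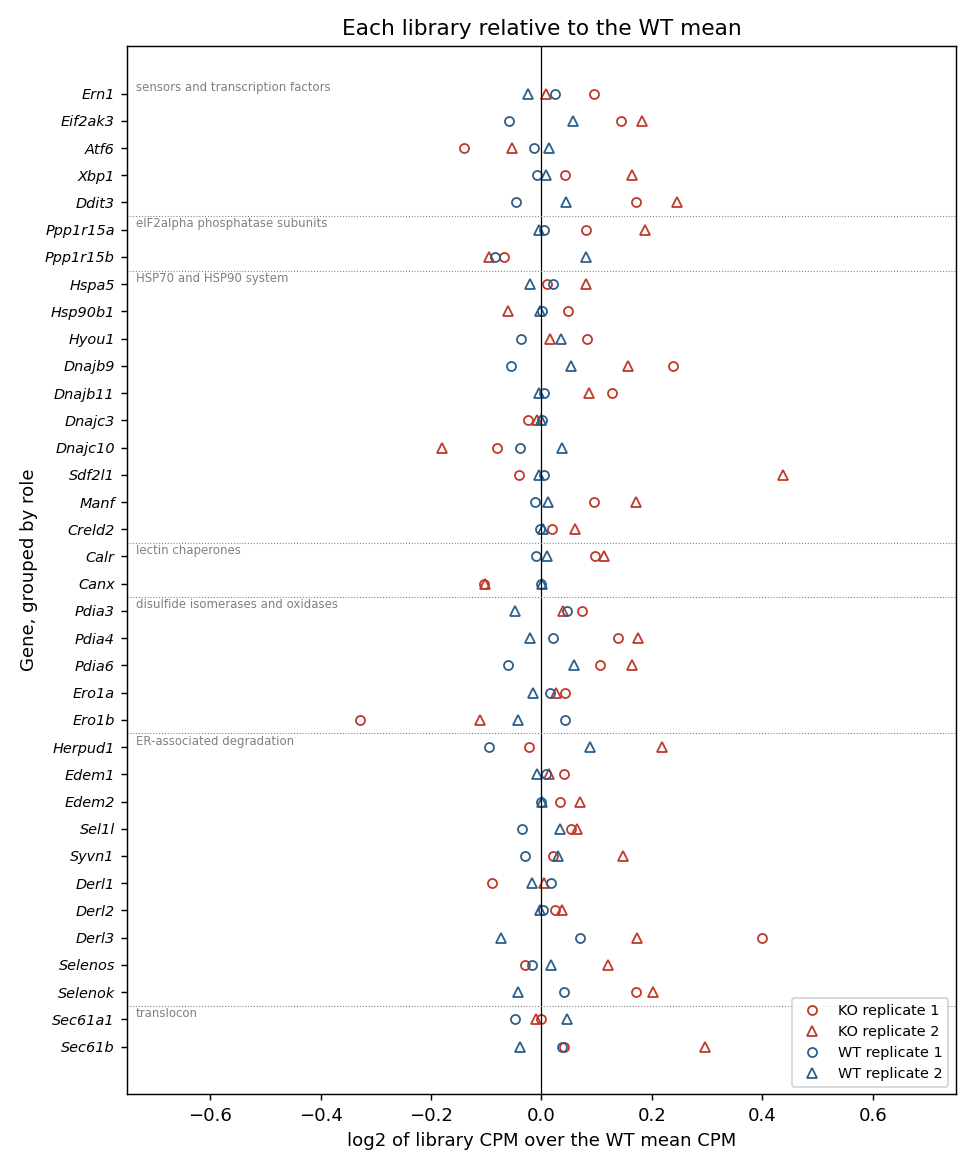
Each library's CPM over the mean CPM of the WT libraries, on a log2 scale, for the 36 genes grouped by role (red, KO; blue, WT; circles, replicate 1; triangles, replicate 2). Most points lie within 0.2 of 0, and the KO libraries are farthest apart for Sdf2l1, at 5.44 and 7.58 CPM.

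ER-associated degradation, which returns misfolded proteins to the cytosol for the proteasome, showed small positive fold changes at its core. The ubiquitin ligase gene Syvn1 was at 97.0 and 106 CPM in KO libraries, against 93.6 and 97.7 CPM in WT libraries. Its adaptor Sel1l was at 96.6 and 97.4 CPM in KO and 90.9 and 95.3 CPM in WT (0.06 ± 0.07). Edem1 and Edem2, which trim mannose from glycoproteins to be degraded, were at 0.03 ± 0.07 and 0.05 ± 0.08. The 10 genes of the role had a summed level of 719 and 759.6 CPM in KO libraries and 703 and 711 CPM in WT libraries, and 9 of the 10 fold changes were positive. None passed.

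The membrane factors of degradation included Selenok and Derl3, the members with the smallest p and the largest fold change when all libraries were used. Selenok, a selenoprotein that binds Derlins, was at 120.0 and 123 CPM in KO libraries, against 109.5 and 103 CPM in WT libraries, at 0.19 ± 0.07 (adjusted p = 0.482), whereas its partner Selenos was at 46.8 and 51.9 CPM in KO and 47.2 and 48.3 CPM in WT. Derl3, the Derlin most closely tied to secretory cells, was at 12.1 and 10.3 CPM in KO and 9.60 and 8.69 CPM in WT, at 0.29 ± 0.13 (adjusted p = 0.581), on 193 to 266 counts. Without KO replicate 1 the fold change of Derl3 was 0.17, below those of several other members in the same refit. The largest of these were Sdf2l1 (0.44), Sec61b (0.30) and Ddit3 (0.24). Derl1 and Derl2, the more widely expressed Derlins, were at -0.04 ± 0.06 and 0.03 ± 0.09. Herpud1, a short-lived scaffold of the complex and a sensitive stress gene, was at 80.3 and 94.8 CPM in KO and 76.4 and 86.7 CPM in WT, with replicate 2 the higher library in both groups. Herpud1 was at -0.02 without KO replicate 2, as against 0.10 with all libraries. Derl2 and Syvn1 also overlap genes on the opposite strand, Mis12 and Mrpl49.

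The translocon genes, whose products form the channel into the ER, differed little for the larger subunit. Sec61a1 was at 416 and 413 CPM in KO libraries, against 403 and 430.3 CPM in WT libraries, with overlap, and its interval ran from -0.14 to 0.13. Sec61b was at 33.6 and 40.0 CPM in KO and 33.5 and 31.7 CPM in WT (0.17 ± 0.10; adjusted p = 0.656). The KO value of Sec61b was set by replicate 2, and its fold change without that library was 0.05.

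The members that hold an ERSE or ERSE-II are described here beside those without, and the difference between the sets was not tested. The 12 with a match had a median log2 fold change of 0.07, from -0.22 (Ero1b) to 0.29 (Derl3), and 8 of them were positive. The 18 members with a window and neither element had a median of 0.08, from -0.13 (Dnajc10) to 0.22 (Sdf2l1), and 17 were positive. None of the 12 reached an unadjusted p under 0.05, and the 4 members that did were all among the 18. At that cutoff, 4.48% of all genes tested were higher and 4.14% lower. The split rests in part on the cutoff, since 95% intervals among the 12 began just below 0 for Derl3 (-0.004) and Pdia6 (-0.008). Among the 18 they began at -0.004 for Eif2ak3, -0.003 for Ppp1r15a and 0.005 for Ddit3. The search allowed no mismatch in the fixed letters, so any member with only a near match counts among the 18.

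Other genes of the pathway, 55 in all, gave 1 call. P4hb was the gene called, and 54 did not pass, with a median log2 fold change of 0.01 and 29 positive against 26 negative values. At an unadjusted p under 0.05, 2 were higher (P4hb and the signal peptidase gene Sec11a) and 1 was lower (Faf2). Sec11a was at 90.9 and 92.5 CPM in KO libraries, against 80.8 and 80.8 CPM in WT libraries (0.18 ± 0.07; adjusted p = 0.492), and Faf2, which recruits the ATPase VCP to the ER, was at 53.0 and 53.7 CPM in KO and 57.4 and 65.3 CPM in WT (-0.20 ± 0.08). Ern2, the IRE1 paralogue of epithelial cells, was near the detection limit with 14 and 13 counts in KO and 9 and 6 in WT (0.84 ± 0.43; adjusted p = 0.610). P4hb was not called without WT replicate 1 or without WT replicate 2, when 0 of the genes tested were called, although its fold change was 0.99 and 1.05.

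The somatic share of the libraries varied. In bulk RNA, fewer cells of a type and less RNA per cell cannot be told apart, and secretory somatic cells also express ER chaperones. The summed Sertoli markers differed more between the KO libraries, at 2347 and 2916 CPM, than between genotypes. KO replicate 2 had more of them and was also the higher KO library for 24 of 36 members. That count has no share over all genes beside it, so it may be a trait of the library and not of the members. In the WT pair the Sertoli sums were closer, at 2641 CPM in WT replicate 1 and 2549 CPM in WT replicate 2. The Sertoli genes went both ways there. Inha was at 363 CPM in WT replicate 1 and 306 in WT replicate 2, and Cldn11 at 70.9 and 83.6 CPM. Of the 36 members, 16 were higher in WT replicate 1 than in WT replicate 2. Of 6 peritubular myoid genes the sum was 517 and 672 CPM in KO libraries and 478 and 544 CPM in WT libraries. The sums of 6 stromal genes overlapped (1004 and 1159 CPM in KO, 1121 and 1252 CPM in WT), although the collagen gene Col3a1 (206 and 234 CPM in KO, 292 and 311 CPM in WT) and the proteoglycan gene Dcn (43.0 and 49.0 CPM in KO, 70.0 and 63.6 CPM in WT) were called lower, and the sum of 6 erythroid genes was 1532 and 1150 CPM in KO and 1015 and 922 CPM in WT, with both KO libraries above both WT libraries and none of the genes called. Of the erythroid genes, 5 were above 1 CPM. All 6 Leydig cell genes (120.5 and 121 CPM in KO, 125 and 116 in WT) and all 6 endothelial genes were above 1 CPM, and 1 of 6 macrophage genes was. The part of cell composition in the fold changes of the members was not tested.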

How the data were processed

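The members and the lists of related genes were chosen with earlier results of these data known. The authors aligned filtered reads to GRCm39 with HISAT2 and deposited raw featureCounts output, that is unnormalized read counts for each gene. The sources used here give no tool versions, gene annotation, strand setting or handling of multiply aligned reads, so reads of overlapping genes may have been shared or dropped. The 78275 identifiers were named from GENCODE M39 (78263 matched once versions were removed), and transcript lengths are those of the Ensembl canonical transcript.

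All 4 libraries entered one fit in R 4.3.3 with edgeR 4.0.16, covering 19736 genes with enough counts (filterByExpr, minimum count 10). TMM scaling, the quasi-likelihood F test without covariates and Benjamini-Hochberg adjustment over all genes tested were used, and calls required an adjusted p under 0.1, as in the study. Levels are CPM (counts per 1000000 of the TMM-scaled library), and the SE is the log2 fold change over the square root of F. Alternatives were DESeq2 1.42.0, limma-voom (limma 3.58.1), other scalings, filters and thresholds, a block on the replicate number, and the omission of single libraries. The fit was tested on simulated data. The genes named were all 36 members, Sirt7, and of 55 other genes of the pathway each called gene or, in a role with none, the gene with the smallest p. Promoter windows and their coordinates came from RefSeq on GRCm38.p6 and were kept apart from GRCm39 positions.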

Additional observations from a re-analysis of the deposited data

How the results depend on the processing

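No member of the unfolded protein response list was called under any of the 11 refits or at an adjusted p under 0.05. Of 396 recomputed member fold changes, 386 kept their direction and side of the threshold, and 10 changed direction. Without a filter on low counts Hsp90b1 was at 0.005 and Sec61a1 at 0.004. Leaving out each library in turn gave -0.061 to 0.052 for Hsp90b1, -0.050 to 0.044 for Sec61a1, -0.084 to 0.005 for Derl1, -0.037 to 0.436 for Sdf2l1, -0.018 to 0.218 for Herpud1, -0.026 to 0.120 for Selenos and -0.159 to 0.004 for Ppp1r15b. The members' median was 0.046 to 0.076 with a library left out and 0.044 with total-count scaling. The count of members at an unadjusted p under 0.05 was 2 with DESeq2, 9 without a filter, and 0 to 12 with a library left out. Over all genes, 17 were called, against 48 with DESeq2, 0 without a filter, 9 at an adjusted p under 0.05 and 0 to 463 with a library left out. Of the other genes of the pathway, 0 were called without a filter and 0 to 1 with a library left out. With the replicate number as a block (replicate block) 236 genes were called and again 0 members. Same-numbered libraries share only a number in the labels, and their deviations correlated at 0.14 across genes. With 2 libraries a group, the half-width of a member's unadjusted 95% interval was 0.126 to 0.396 on the log2 scale, and a call after adjustment would need a larger difference. The causes of these changes were not tested.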

Other observations

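Outside the 36 members, 37 genes held an ERSE or ERSE-II match in a promoter window, and 23 of them had enough counts to be tested. None was called, and their median log2 fold change was -0.05, with 8 positive and 15 negative. The 4 at an unadjusted p under 0.05 went in both directions. They were Krtcap2, a subunit of the oligosaccharyltransferase that glycosylates proteins in the ER (0.25 ± 0.10), the imprinting regulator Zfp57 (0.30 ± 0.13), Lgalsl (-0.24 ± 0.09) and the weakly expressed Ptgdr2 (-1.02 ± 0.40, at 0.690 CPM on average). Of the others with a known place in the secretory pathway, the mannosyltransferase gene Alg12 was at 0.09 ± 0.11 and the Golgi calcium-binding protein gene Nucb1 at -0.03 ± 0.07. These genes were named after their values were seen.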
